A study of Mus musculus with 23 samples.

Results

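The genes described here encode the machinery of autophagy, followed through tumors of IL6Myc mice and normal B cells. They were chosen by name. The deposited table was searched for the ATG genes, the ULK kinases, the subunits of the Beclin 1 lipid kinase complex, the LC3 and GABARAP proteins, the cargo receptors, the factors TFEB, TFE3 and MITF, and the lysosomal membrane proteins LAMP1 and LAMP2. Of 61651 entries, 55 carried such a name, and a gene was kept where it reached 1 CPM, its count scaled to the library's total, in at least 4 libraries. In all, 45 genes were kept among the 11633 gene profiles tested. Another 9 names, LAMP2 and MAP1LC3B among them, carried no values and were not analysed here, and CALCOCO2 was listed at 0 in every library. ATG9B was the gene nearest to the limit, with 1 CPM or more in 12 of 23 libraries, followed by MITF and WIPI1 with 21 each, and the other 42 genes passed it in all 23. ATG4A had 2 entries, of which the one with the higher mean was used.

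The study profiled bulk RNA from tumors of transgenic IL6Myc mice, a mouse model of plasma cell malignancy, with normal B cells as controls. The tumor group held 7 tumors from mesenteric lymph nodes (MLN) and 7 from spleens of 8 mice, and 6 mice gave both. The controls were splenic B cells of wild-type Balb/c mice, 4 libraries of quiescent cells and 5 of cells cultured with lipopolysaccharide (LPS), a bacterial B cell mitogen, at 1 µg/ml for 16 hours, here called activated. Every tissue was depleted of other cells with magnetic beads before RNA was isolated, which leaves B lineage cells unbound. The sources used here do not give the strain, age or sex of the tumor mice, nor the promoter that drives their transgenes. The labels do not say that the control libraries came from separate mice, so the spread between these libraries may in part be technical. Tumor mice and both controls were fitted together with a shared spread, so p-values between the controls also carry the spread among tumors.

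Autophagy encloses cytoplasm, aggregates or organelles in a double membrane and delivers them to the lysosome. A kinase complex around ULK1 starts the process, a lipid kinase complex around Beclin 1 marks the site, ATG9 vesicles and the lipid transfer protein ATG2 supply membrane, and enzymes that resemble the ubiquitin system attach LC3 and GABARAP proteins to it. Receptors such as p62, the product of SQSTM1, tie cargo to those proteins. Plasma cells secrete large amounts of antibody, and autophagy is known to limit the load on their endoplasmic reticulum (ER).

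The labelled cell types were checked against marker genes. Library totals lay between 13328866 and 25045814 estimated counts. The summed level of 10 plasma cell markers ranged from 1902 to 2295 CPM in quiescent, 1210 to 1234 CPM in activated, 1318 to 21094 CPM in MLN tumor and 887 to 18141 CPM in spleen tumor libraries. The spleen tumors of mice 1610, 1612 and 1615 and the MLN tumor of mouse 1611 lay at 887, 1578, 1195 and 1318 CPM, below every quiescent library, although all are labelled as malignant plasma cells. Tested singly, 7 of the 10 plasma cell markers were higher in tumor mice than in quiescent cells and 10 higher than in activated cells. In both comparisons 0 were lower. Markers of other cells were higher in tumors too. The 10 macrophage markers with values summed to 17.7 to 150 CPM in quiescent, 9.54 to 22.6 CPM in activated, 341 to 2812 CPM in MLN tumor and 201 to 2655 CPM in spleen tumor libraries, and none of the 10 was at 0 in every library of a group. All 10 macrophage, 7 of 7 neutrophil, 4 of 4 dendritic cell and 3 of 3 megakaryocyte markers were higher in tumor mice than in either control. Against quiescent cells 7 of 7 erythroid, 8 of 9 T and NK cell and 7 of 8 stromal and endothelial markers were higher too, and 10 of 10 mature B cell markers lower. The erythroid markers summed to 104 to 130 CPM in quiescent, 289 to 319 CPM in activated and 106 to 4584 CPM in tumor libraries. The part of these cells in the differences of autophagy genes was not tested. Transcripts of 3 Y-linked genes summed to 354 to 369 CPM in quiescent, 0.54 to 0.94 CPM in activated, 2.81 to 290 CPM in MLN tumor and 4.36 to 328 CPM in spleen tumor libraries. All tumors lay between the controls, so the tumor comparisons carry a Y-linked difference too. Between the controls this difference and LPS culture cannot be told apart. In bulk samples fewer cells of a type and less RNA per cell cannot be told apart either.

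**Figure D1:**
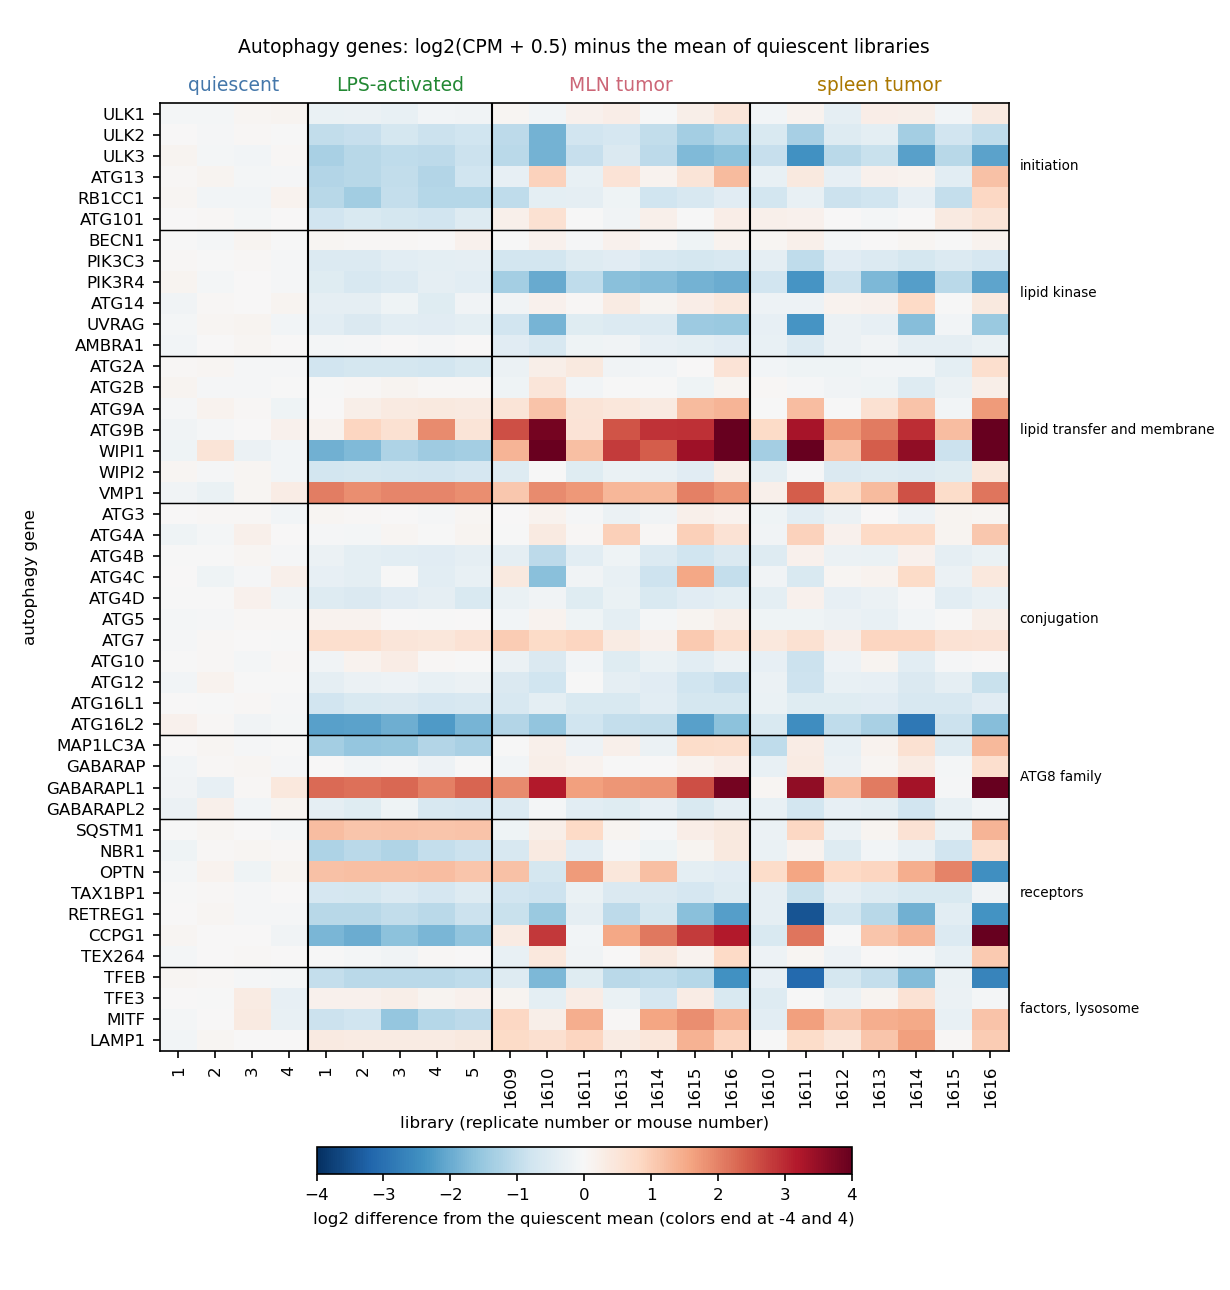
Each row is an autophagy gene and each column a library, labelled by replicate or mouse number. Color gives log2(CPM + 0.5) minus the mean of the 4 quiescent libraries, so red is above and blue below quiescent cells. WIPI1, ATG9B, GABARAPL1 and CCPG1 are the deepest red rows among tumors, and the spleen tumors of mice 1610, 1612 and 1615 are the palest tumor columns.

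Promoter sequence was examined because MYC, TFEB, TFE3 and MITF are all known to bind the E-box CACGTG. Of the 45 genes, 39 had an entry in the RefSeq promoter table (mouse build GRCm38.p6), with 54 start sites among them. CACGTG, which reads alike on both strands, lay within the 250 bases before the start in 5 of these 54 promoters (9.26%), against 6.02% of 32851 promoters in the table. The genes were ATG3, ATG5, ATG7, LAMP1 and RETREG1. LAMP1, which codes for an abundant glycoprotein of the lysosomal membrane, had 4 copies, and 0.0213% of all promoters had at least 4. The stretches just before the start site are shown for the LAMP1 (chr8:13159061-13159160, plus strand), ATG3 (chr16:45158709-45158828, plus strand) and ATG7 (chr6:114670936-114671095, plus strand) genes, with each CACGTG in capitals.

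LAMP1: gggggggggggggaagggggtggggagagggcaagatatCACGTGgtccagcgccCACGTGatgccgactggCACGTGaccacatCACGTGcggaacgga

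ATG3: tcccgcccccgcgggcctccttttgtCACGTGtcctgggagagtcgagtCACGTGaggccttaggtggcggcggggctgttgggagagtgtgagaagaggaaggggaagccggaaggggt

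ATG7: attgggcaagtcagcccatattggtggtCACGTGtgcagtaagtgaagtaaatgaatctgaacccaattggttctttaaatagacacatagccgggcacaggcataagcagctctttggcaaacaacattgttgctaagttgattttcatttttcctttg

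The 120 bases before the start are shown for WIPI1 (chr11:109611390-109611509, minus strand), CCPG1 (chr9:72985384-72985503, plus strand) and VMP1 (chr11:86683837-86683956, minus strand, one of 3 start sites), because these genes were among those with the largest rises in tumors. All letters are lower case, since no CACGTG lay in them.

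WIPI1: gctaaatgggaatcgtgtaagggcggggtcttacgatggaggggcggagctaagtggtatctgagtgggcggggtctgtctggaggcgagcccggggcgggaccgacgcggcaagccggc

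CCPG1: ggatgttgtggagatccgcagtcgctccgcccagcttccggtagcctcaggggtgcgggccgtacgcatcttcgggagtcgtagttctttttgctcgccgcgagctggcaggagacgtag

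VMP1: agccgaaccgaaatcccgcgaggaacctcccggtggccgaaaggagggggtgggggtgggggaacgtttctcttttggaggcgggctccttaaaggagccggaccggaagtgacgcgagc

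Other motifs were rare in both sets, and a missing match says only that these letters are not in the window searched. All were searched on both strands. TCACGTGA, the core of the element bound by TFEB, which holds the E-box, was in the ATG3 promoter and in 0.785% of all promoters, and the full TFEB palindrome was in 0 of 54 promoters of autophagy genes and in 0.24% of all. The composite C/EBP and ATF element TGATGNAAT was in 0 of 54 and in 0.816% of all. The antioxidant response element was in the ULK2 promoter and in 2.47% of all promoters. The ER stress element was in 0 of 54 and in 0.113% of all, and the NF-kB site in 0 of 54 and in 0.14% of all.

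The first question was how tumors differ from the quiescent B cell. All p-values below are adjusted values from edgeR's quasi-likelihood test over all 11633 profiles, with both tumors of a mouse summed (n = 8 tumor mice, 4 quiescent and 5 activated libraries), and a difference is called at 0.05. Levels are CPM scaled by TMM, edgeR's factors for library composition, and are to be compared between libraries, not between genes. In tumor mice 11 of 45 autophagy genes (24.4%) were higher and 17 (37.8%) lower than in quiescent cells, while 36.8% of all profiles were higher and 31.9% lower. The median log2 difference was -0.09 over the autophagy genes and 0.08 over all profiles. At least 2-fold changes were called for 6 higher and 5 lower autophagy genes, against 23.9% and 6.8% of all profiles. All 8 tumor mice lay above all quiescent libraries for 6 autophagy genes, where 23.3% of all profiles did, and below them for 16, where 24.2% of all profiles did.

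Against activated B cells, a dividing control, 18 of the 45 genes (40%) were higher and 3 (6.67%) lower in tumor mice, where 36.1% and 27% of all profiles were higher and lower. The genes that were lower were PIK3R4, SQSTM1 and AMBRA1. The median log2 difference was 0.14 over the autophagy genes and 0.09 over all profiles. At least 2-fold changes were called for 6 higher and 0 lower autophagy genes, against 24.3% and 4.54% of all profiles. The groups did not overlap for 11 genes that lay higher and 3 that lay lower, against 22.3% and 17.6% of all profiles. The counts depended on mouse 1616: without it 15 genes were higher and 12 lower, and ATG5, ATG3 and VMP1 were among those that became lower. Without mouse 1612, 6 genes were lower. Shares of all profiles are not given for these fits, so a change in these genes and a shift of all profiles cannot be told apart.

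The controls differed from each other too. Activated cells had 25 of the 45 genes (55.6%) lower and 6 (13.3%) higher than quiescent cells, against 34.1% and 25.4% of all profiles. The median log2 difference was -0.44 over the autophagy genes and -0.15 over all profiles. The 6 genes that rose were SQSTM1, VMP1, GABARAPL1, OPTN, ATG7 and ATG9B. At least 2-fold changes were called for 5 higher and 11 lower autophagy genes, against 11.4% and 16.2% of all profiles. The groups did not overlap for 6 genes that lay higher and 26 that lay lower, against 29.8% and 38.1% of all profiles. With the Y-linked level as a covariate 14 genes were lower, and the calls of ATG101, ATG13, ATG2A, CCPG1, GABARAPL2, MITF, NBR1, PIK3R4, RB1CC1, TFEB, WIPI1 and WIPI2 were lost. The Y-linked level hardly varied within either control, so the weight of this covariate came mainly from the tumor mice. It cannot separate the Y-linked difference from LPS culture, and standard errors grew, for CCPG1 from 0.53 to 1.09. Tumors share the spread of this fit, so calls between the controls also depend on how tumors enter it. Taking all 14 tumors as separate samples left 16 genes lower. A fit without tumors, on same-numbered control libraries with the number as a block, gave 9 genes higher and 26 lower. It added ATG9A, LAMP1 and TFE3 to the higher genes and ULK1 to the lower ones. Shares of all profiles are not given for these alternatives. The 3 comparisons share groups of libraries, so their values for a gene are given side by side and are not independent of each other.

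**Figure D2:**
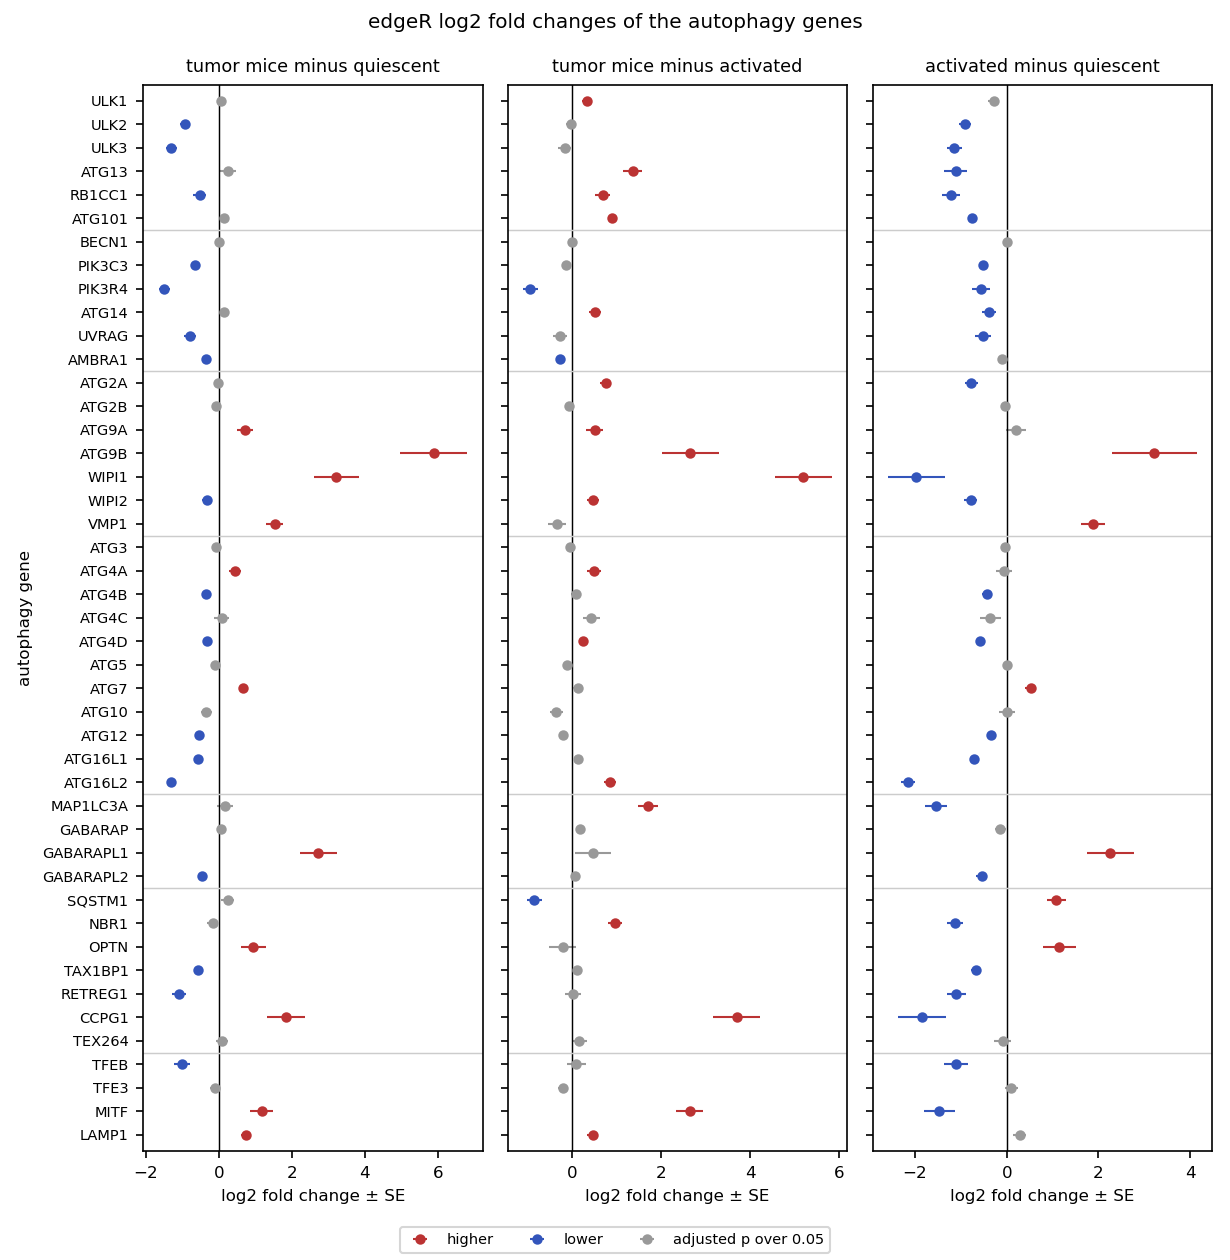
Each dot is the edgeR log2 fold change of an autophagy gene with its standard error, ordered by role and separated by gray lines, for tumor mice minus quiescent, tumor mice minus activated, and activated minus quiescent. Red and blue dots passed the adjusted p of 0.05, 11 higher and 17 lower in the left panel, 18 and 3 in the middle, 6 and 25 in the right.

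The kinase complex that starts autophagy has 6 genes here. Of these, 3 were lower and 0 higher in tumor mice than in quiescent cells, against 31.9% and 36.8% of all profiles. In activated cells 5 were lower than in quiescent cells, against 34.1% of all profiles, and the calls of ATG13, ATG101 and RB1CC1 were lost with the Y-linked covariate. ULK1 did not pass there (-0.28 ± 0.12, adjusted p = 0.0591). ULK3, a kinase of the ULK family also known from hedgehog signaling, had 91.7, 80.4, 78.9 and 87.3 CPM in the quiescent libraries and 33.8, 38.7, 41.2, 40.4 and 46.4 CPM in the activated ones. It ran from 22.2 through a median of 39.8 to 56.4 CPM in MLN tumors and from 15.3 through 38.9 to 45.8 CPM in spleen tumors. Every tumor library and every activated library lay below every quiescent one. The log2 change was -1.30 ± 0.15 (SE; adjusted p = 2.92e-06) in tumor mice and -1.14 ± 0.17 (adjusted p = 2.23e-05) in activated cells and the difference between tumor mice and activated cells did not pass (-0.16 ± 0.14, adjusted p = 0.348). ULK2 took the same course, with -0.93 ± 0.12 in tumor mice and -0.92 ± 0.13 in activated cells.

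The scaffold subunits behaved otherwise. ATG13, the regulatory subunit that mTORC1 phosphorylates, lay at 66.3 to 75.1 CPM in quiescent, 30.6 to 40.3 CPM in activated, 55.8 to 169 CPM in MLN tumor and 51.5 to 159 CPM in spleen tumor libraries. It was higher in tumor mice than in activated cells (1.36 ± 0.22, adjusted p = 6.21e-05), with both groups apart, and its difference from quiescent cells did not pass (0.25 ± 0.23). ATG101, its binding partner, and RB1CC1, the large scaffold FIP200, were likewise lower in activated cells and higher in tumor mice than in activated cells. RB1CC1 stayed below quiescent cells in tumor mice (-0.52 ± 0.18, adjusted p = 0.0165), a call lost in 5 alternatives, the removal of quiescent library 4 and the Y-linked covariate among them. ULK1, the kinase itself, passed in the comparison with activated cells only, by 0.34 ± 0.11 (adjusted p = 0.00967), and did not pass without mouse 1616 or with the Y-linked covariate.

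In the lipid kinase complex 4 of 6 genes were lower in tumor mice than in quiescent cells and 0 higher, against 31.9% and 36.8% of all profiles. PIK3R4 codes for VPS15, the pseudokinase that anchors the lipid kinase VPS34. It had 172, 151, 164 and 157 CPM in quiescent and 116, 102, 110, 126 and 119 CPM in activated libraries. MLN tumors ran from 39.1 through 47.6 to 78.6 CPM and spleen tumors from 30.9 through 45.8 to 94.9 CPM. The 3 kinds of sample did not overlap at all, quiescent being highest and tumors lowest. PIK3R4 fell by 1.49 ± 0.16 on the log2 scale against quiescent (adjusted p = 2.19e-06) and by 0.93 ± 0.16 against activated cells (adjusted p = 8.30e-05). Its change in activated cells was -0.56 ± 0.19 (adjusted p = 0.0167), a call that was lost in 4 alternatives, among them the Y-linked covariate (adjusted p = 0.141).

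PIK3C3, the catalytic subunit VPS34, changed by -0.64 ± 0.06 in tumor mice and by -0.51 ± 0.07 in activated cells. AMBRA1, a Beclin 1 partner, had 78.5, 84.6, 88.7 and 85 CPM in quiescent and 79.5, 81.3, 84.2, 81.2 and 85.6 CPM in activated libraries. Its tumor libraries reached from 53.3 through 64.3 to 75.6 CPM in MLN and from 57.3 through 68.5 to 76.1 CPM in spleen, all below the lowest control library. The difference was small in size, -0.36 ± 0.06 against quiescent (adjusted p = 0.000119) and -0.27 ± 0.06 against activated cells (adjusted p = 0.000836), and the latter was lost with the Y-linked covariate (-0.09, adjusted p = 0.434). UVRAG, the subunit of the endosomal form of the complex, was lower than in quiescent cells by 0.79 on the log2 scale in tumor mice and spread from 41.7 to 198 CPM among spleen tumors, which alone did not carry it past the threshold. BECN1, the gene of Beclin 1, was nearly level, with 152 to 174 CPM in quiescent, 164 to 182 CPM in activated and 144 to 188 CPM in tumor libraries, and log2 differences of 0.01 ± 0.06, 0.00 ± 0.06 and 0.01 ± 0.07 in the 3 comparisons.

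Among the proteins of membrane supply 4 of 7 genes were higher in tumor mice than in quiescent cells and 1 lower, against 36.8% and 31.9% of all profiles. One of the 4, ATG9B, passed the filter on low levels through tumor libraries. WIPI1 codes for a protein that binds the phosphoinositide made by VPS34 on the forming membrane. It had 3.76, 6.31, 3.58 and 3.98 CPM in quiescent and 0.775, 0.915, 1.54, 1.28 and 1.39 CPM in activated libraries. In tumors it ran from 10.5 through 33 to 97.6 CPM in MLN and from 1.39 through 25.3 to 169 CPM in spleen. All MLN tumors lay above all controls, and the spleen tumors of mice 1610 and 1615, at 1.39 and 2.12 CPM, lay below the quiescent libraries. The spleen tumor of mouse 1610 lay within the activated range. WIPI1 was higher in tumor mice by 3.22 ± 0.62 against quiescent (adjusted p = 0.000312) and by 5.19 ± 0.64 against activated cells (adjusted p = 3.99e-06). The latter was 4.57 without mouse 1616, 4.12 with the Y-linked covariate and 3.60 after quantile normalization, which brought the former to 2.23.

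In activated cells WIPI1 was lower by 1.97 ± 0.62 on the log2 scale (adjusted p = 0.0119), a call that did not hold with the Y-linked covariate, where the value was -0.46 ± 1.24 (adjusted p = 0.79), nor in 3 other alternatives. Its relative WIPI2, which recruits the ATG16L1 complex, was lower in activated cells (-0.79 ± 0.15) and in tumor mice (-0.33 ± 0.13, adjusted p = 0.0368). The tumor call for WIPI2 was lost in most alternatives, DESeq2 included.

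VMP1, a lipid scramblase of the ER membrane, rose in both tumors and activated cells. It had 33.1, 30.4, 38.6 and 44.5 CPM in quiescent and 152, 133, 141, 143 and 134 CPM in activated libraries. MLN tumors ran from 77.6 through 123 to 148 CPM and spleen tumors from 42 through 88.5 to 214 CPM. All activated and all MLN tumor libraries lay above the quiescent ones, and of the spleen tumors that of mouse 1610, at 42 CPM, lay within their range. The log2 change was 1.53 ± 0.24 in tumor mice (adjusted p = 5.27e-05) and 1.88 ± 0.26 in activated cells (adjusted p = 1.10e-05). Tumor mice and activated cells differed by -0.34 ± 0.20 (adjusted p = 0.153), and by -0.52 without mouse 1616, where VMP1 was called lower (adjusted p = 0.0268).

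The scramblases of the ATG9 vesicles were both higher in tumor mice. ATG9A had 30.1 to 37.8 CPM in quiescent, 34.3 to 45.1 CPM in activated and 31.4 to 112 CPM in tumor libraries, a change of 0.72 ± 0.21 against quiescent (adjusted p = 0.00554). ATG9B, its paralog, was scarce: the 4 quiescent libraries held 4 counts together, and the tumor libraries 809. The ratio of their CPM was 62.3, with an exact 95% interval of 24.3 to 229 that covers counting error only. Per library ATG9B had 0, 0.0412, 0.0543 and 0.124 CPM in quiescent cells, 0.116, 0.499, 0.336, 1.53 and 0.288 CPM in activated cells, 0.3 to 9.97 CPM in MLN tumors and 0.447 to 9.73 CPM in spleen tumors. Every tumor library was above every quiescent one, and both tumors of mouse 1616 were highest. Of the 12 libraries in which ATG9B reached 1 CPM, 11 were tumors, so that the filter kept it through the group where it was high and the tests below are not independent of that choice. The fitted log2 differences were 5.88 ± 0.92 (adjusted p = 5.47e-05) against quiescent and 2.66 ± 0.64 (adjusted p = 0.0017) against activated cells. At such counts they hang on the model: after quantile normalization the values were 2.63 and 0.30 (adjusted p = 0.637 for the latter), and with the Y-linked covariate the second was 1.82 (adjusted p = 0.152). Activated cells had more ATG9B than quiescent ones by 3.22 ± 0.92 (adjusted p = 0.00657), and by 2.39 without activated library 4, which held the most.

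**Figure D3:**
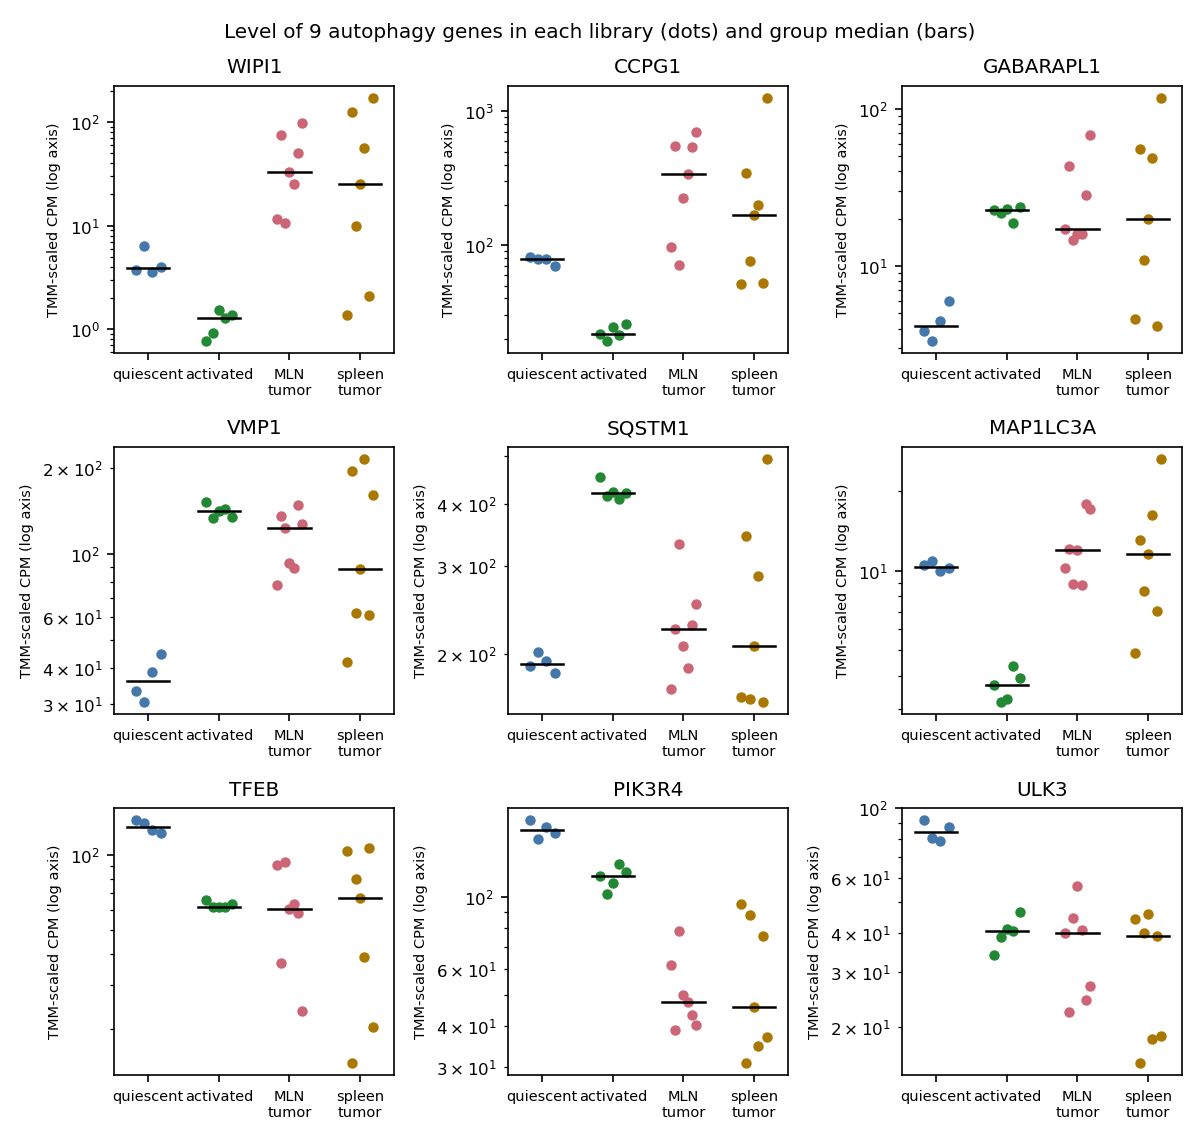
TMM-scaled CPM of 9 autophagy genes on log axes, 1 dot per library and a bar at the group median, for 4 quiescent, 5 activated, 7 MLN tumor and 7 spleen tumor libraries. WIPI1 and CCPG1 have their lowest group medians in activated cells and reach 169 and 1254 CPM in the spleen tumor of mouse 1616. SQSTM1 is highest in activated cells apart from that tumor, and PIK3R4 separates quiescent, activated and tumor libraries without overlap.

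The conjugation enzymes had small changes for the most part. Of 11 genes, 2 were higher and 5 lower in tumor mice than in quiescent cells, against 36.8% and 31.9% of all profiles. ATG5, which joins ATG12 to form the enzyme that places LC3 on the membrane, had 45.4, 46.7, 50 and 49.5 CPM in quiescent and 53.2, 52.9, 48.9, 47.8 and 48.9 CPM in activated libraries. Its tumor levels ran from 36.7 through 45.3 to 56.1 CPM in MLN and from 39.1 through 42.7 to 57 CPM in spleen. The groups overlapped, with mouse 1616 highest at both sites. ATG5 did not pass in any of the 3 comparisons: -0.11 ± 0.09 (adjusted p = 0.265), -0.12 ± 0.08 (adjusted p = 0.22) and 0.01 ± 0.10 (adjusted p = 0.969). Without mouse 1616 it was called lower in tumors, by 0.17 on the log2 scale against quiescent (adjusted p = 0.027) and 0.28 against activated cells (adjusted p = 0.000659). It was also called lower than in activated cells with the Y-linked covariate (-0.34, adjusted p = 0.0487).

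ATG16L2 moved most among the conjugation genes. It is a paralog of ATG16L1, the subunit that steers the ATG5 complex to the membrane. Quiescent libraries held 162, 147, 129 and 137 CPM and activated ones 31.2, 32, 36.7, 29.7 and 39.5 CPM. Tumors ran from 31.4 through 63.4 to 81.7 CPM in MLN and from 19.4 through 57.5 to 92.7 CPM in spleen. All tumor and activated libraries lay below all quiescent ones. The log2 change of ATG16L2 was -1.30 ± 0.13 in tumor mice (adjusted p = 1.07e-06) and -2.15 ± 0.15 in activated cells (adjusted p = 1.15e-08). It was higher in tumor mice than in activated cells by 0.85 ± 0.13 (adjusted p = 4.38e-05), which spleen tumors alone did not carry past the threshold (0.75, adjusted p = 0.0579). ATG16L1 itself went from 79.1 to 84.1 CPM in quiescent cells to 47.6 to 54.1 CPM in activated and 49.5 to 68.1 CPM in tumor libraries.

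ATG7, the E1-like enzyme that activates both ATG12 and LC3, was one of the few members higher in both settings, by 0.65 ± 0.11 in tumor mice and 0.52 ± 0.12 in activated cells. It had 14 to 15.1 CPM in quiescent, 20.2 to 23.3 CPM in activated and 16.5 to 30.5 CPM in tumor libraries, none of which overlapped the quiescent range. The LC3 proteases split: ATG4A was higher in tumor mice (0.44 ± 0.16, adjusted p = 0.0216), ATG4B and ATG4D were lower (-0.36 ± 0.10 and -0.33 ± 0.07), and ATG4C did not pass (0.08 ± 0.21). The ATG4A call was lost in 4 alternatives, quiescent libraries 1 and 2 each being enough to end it. ATG12 was lower in tumor mice by 0.53 on the log2 scale, and ATG3, ATG10 and ATG5, its partners in conjugation, did not pass against quiescent cells.

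In the LC3 and GABARAP family 4 genes were tested. The product of GABARAPL1 sits on autophagosomes and binds receptors. It had 3.87, 3.34, 4.45 and 5.98 CPM in quiescent and 22.6, 21.8, 23.2, 18.8 and 23.6 CPM in activated libraries. MLN tumors ran from 14.6 through 17.3 to 68.4 CPM and spleen tumors from 4.14 through 19.8 to 117 CPM. The spleen tumors of mice 1610 and 1615, at 4.57 and 4.14 CPM, lay in the quiescent range and all other tumors above it. GABARAPL1 was higher by 2.73 ± 0.51 in tumor mice (adjusted p = 0.000243) and by 2.26 ± 0.52 in activated cells (adjusted p = 0.0014), and quantile normalization brought the tumor value to 1.82. The rise in activated cells was 3.50 with the Y-linked covariate. Between tumor mice and activated cells GABARAPL1 did not pass (0.47 ± 0.41, adjusted p = 0.326), and the difference was -0.13 without mouse 1616.

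MAP1LC3A, an LC3 protein, had 10.5, 10.9, 10 and 10.2 CPM in quiescent and 3.72, 3.2, 3.27, 4.38 and 3.93 CPM in activated libraries. It ran from 8.8 through 12 to 17.8 CPM in MLN tumors and from 4.91 through 11.5 to 26.3 CPM in spleen tumors. All tumors lay above all activated libraries and on either side of the quiescent ones. It was lower in activated cells (-1.55 ± 0.24, adjusted p = 3.94e-05), higher in tumor mice than in activated cells (1.71 ± 0.22, adjusted p = 5.81e-06; 0.70 after quantile normalization) and not past the threshold against quiescent cells (0.16 ± 0.22). GABARAP did not pass in any comparison, and GABARAPL2 was lower in tumor mice and in activated cells by 0.45 and 0.54 on the log2 scale.

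The cargo receptors went separate ways. SQSTM1, the gene of p62, had 189, 202, 193 and 183 CPM in quiescent and 452, 415, 422, 410 and 421 CPM in activated libraries. It ran from 170 through 224 to 332 CPM in MLN tumors and from 160 through 207 to 492 CPM in spleen tumors. All tumors except the spleen tumor of mouse 1616, at 492 CPM, lay below the activated libraries, and the tumor range enclosed the quiescent one. SQSTM1 rose by 1.08 ± 0.21 in activated cells (adjusted p = 0.000364), was lower in tumor mice than in activated cells (-0.84 ± 0.17, adjusted p = 0.000538), and did not pass against quiescent cells (0.24 ± 0.19, adjusted p = 0.264). After quantile normalization it was called higher in that comparison (0.45, adjusted p = 0.038). Its relative NBR1 had -1.13 ± 0.18 in activated cells and 0.97 ± 0.16 in tumor mice against activated cells.

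CCPG1, a receptor for autophagy of the ER that is known to be induced by ER stress, had 81.9, 78.6, 79 and 70.5 CPM in quiescent and 21.6, 19.3, 24.7, 21.4 and 25.6 CPM in activated libraries. MLN tumors ran from 71.2 through 338 to 703 CPM and spleen tumors from 51 through 169 to 1254 CPM. Every tumor was above every activated library, and 4 tumors were not above the quiescent ones: the MLN tumor of mouse 1611 at 71.2 CPM and the spleen tumors of mice 1610, 1612 and 1615 at 51, 76.7 and 52.5 CPM. CCPG1 was higher in tumor mice by 1.85 ± 0.52 against quiescent (adjusted p = 0.00498) and 3.70 ± 0.53 against activated cells (adjusted p = 1.69e-05), or 1.26 and 3.01 without mouse 1616. With the Y-linked covariate the value against activated cells was 2.56. The change in activated cells, -1.85 ± 0.53 (adjusted p = 0.00636), was -0.24 ± 1.09 with the Y-linked covariate (adjusted p = 0.878).

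RETREG1, also called FAM134B, is another receptor for the ER and moved the other way in tumor mice against quiescent cells. In activated cells both genes were lower. It had 166, 174, 159 and 158 CPM in quiescent and 75, 75.6, 82.6, 77.8 and 90.7 CPM in activated libraries. Tumors ran from 35.3 through 79.4 to 127 CPM in MLN and from 14.5 through 75 to 129 CPM in spleen, all below the quiescent libraries. RETREG1 was lower by 1.08 ± 0.19 in tumor mice (log2; adjusted p = 0.000122) and by 1.10 ± 0.21 in activated cells (adjusted p = 0.00028). The activated call was lost with spleen tumors alone in the fit (adjusted p = 0.0633) and with the tumors of a mouse taken as separate samples. TEX264, the remaining ER receptor measured, did not pass in any comparison.

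OPTN, optineurin, a receptor for damaged mitochondria and bacteria, had 8.83, 10.3, 8.25 and 10.2 CPM in quiescent and 21.7, 22.1, 22.1, 22.8 and 20.9 CPM in activated libraries. It ran from 5.5 through 13 to 31.5 CPM in MLN tumors and from 1.3 through 17.2 to 38.1 CPM in spleen tumors. Mouse 1616 had the lowest spleen value and mouse 1615 the highest, so that tumors lay on both sides of the quiescent range. OPTN was higher in tumor mice by 0.95 ± 0.33 (adjusted p = 0.0194), a call lost in 6 alternatives, among them the removal of quiescent library 3 (adjusted p = 0.0539). The rise in activated cells was 1.15 ± 0.36 (adjusted p = 0.0113), lost in 4 alternatives. TAX1BP1 was lower than in quiescent cells in tumor mice (-0.56 ± 0.08) and in activated cells (-0.68 ± 0.09).

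TFEB, TFE3 and MITF are related factors that switch on lysosomal and autophagy genes. TFEB had 138, 134, 126 and 122 CPM in quiescent and 66.2, 61.5, 61.7, 61.8 and 63.6 CPM in activated libraries. It ran from 23.6 through 60.8 to 93.3 CPM in MLN tumors and from 14.6 through 67.3 to 107 CPM in spleen tumors. All tumors and all activated libraries lay below the quiescent ones. TFEB was lower by 1.01 ± 0.23 in tumor mice (log2; adjusted p = 0.00117) and by 1.11 ± 0.26 in activated cells (adjusted p = 0.00151), the latter call lost in 3 alternatives, the Y-linked covariate (adjusted p = 0.121) among them. MITF had 2.45, 2.64, 3.48 and 2.05 CPM in quiescent, 1.2, 1.29, 0.576, 0.909 and 1.01 CPM in activated, 2.7 to 10.7 CPM in MLN tumor and 1.84 to 9.17 CPM in spleen tumor libraries. All tumors lay above all activated libraries and overlapped the quiescent range. MITF was higher in tumor mice than in quiescent cells by 1.17 ± 0.32 (adjusted p = 0.00389) and than in activated cells by 2.64 ± 0.31 (adjusted p = 2.98e-06). After quantile normalization these values were -0.15 (adjusted p = 0.693) and 0.78 (adjusted p = 0.03). TFE3 did not pass in any comparison (-0.11 ± 0.13 against quiescent cells).

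LAMP1 had 204, 231, 225 and 223 CPM in quiescent and 280, 279, 279, 274 and 290 CPM in activated libraries, and ran from 279 through 372 to 577 CPM in MLN tumors and from 220 through 370 to 690 CPM in spleen tumors. The spleen tumors of mice 1610 and 1615, at 220 and 230 CPM, lay in the quiescent range and all others above it. LAMP1 was higher in tumor mice by 0.75 ± 0.13 against quiescent (adjusted p = 0.000166) and 0.47 ± 0.12 against activated cells (adjusted p = 0.00308), the latter lost in 3 alternatives, the Y-linked covariate among them. The highest LAMP1 levels were in the spleen tumor of mouse 1614 and the MLN tumor of mouse 1615, where the macrophage markers also summed highest, at 2655 and 2812 CPM. MITF was highest in that MLN tumor as well, at 10.7 CPM. The part of macrophages in these results was not tested.

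Tumors spread more widely than the controls, and some genes far more than others. With 0.5 CPM added, the ratio of the highest to the lowest library had a median over the autophagy genes of 2.35 in spleen and 1.94 in MLN tumors, below the medians over all profiles of 2.68 and 2.27. In spleen tumors it was 1.22 for BECN1, larger than in 0.713% of all profiles, and 1.32 for AMBRA1. At the other end it was 89.7 for WIPI1, a ratio larger than that of 98.8% of all profiles. It was 25.3 for GABARAPL1 (94.3% of profiles below) and 24.3 for CCPG1 (94.1%). Measured against the range of the 4 quiescent libraries, the spleen tumor of mouse 1610 had 4 of 45 autophagy genes above it, 33 below and 8 within, and a root mean square log2 difference from the quiescent mean of 0.47. The corresponding differences were 0.59 and 0.60 in the spleen tumors of mice 1612 and 1615. By contrast the spleen tumor of mouse 1616 had 27 genes above and 15 below, with a difference of 1.75.

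WIPI1 and CCPG1 were low in the tumors with the fewest plasma cell markers and high in those with the most, but did not follow the markers throughout. The markers summed to 887 and 1195 CPM in the spleen tumors of mice 1610 and 1615, where WIPI1 stood at 1.39 and 2.12 CPM, and to 21094 and 18141 CPM in the MLN and spleen tumors of mouse 1616, where it stood at 97.6 and 169 CPM. Of that pair the tumor with fewer markers had the higher WIPI1. In mouse 1614 too the spleen tumor had fewer markers than the MLN tumor, 4535 against 6281 CPM, and more WIPI1, 56 against 25.4 CPM. TFEB ran the opposite way, with 104 and 107 CPM in the former pair and 23.6 and 20.3 CPM in the latter. The spleen tumor of mouse 1611, with 7693 CPM of plasma cell and 171 CPM of mature B cell markers, had the lowest TFEB, UVRAG and RETREG1 of all libraries, at 14.6, 41.7 and 14.5 CPM. It also held the highest neutrophil and erythroid sums, 2094 and 4584 CPM, and 1946 CPM of macrophage markers. Both sets of values come from the same libraries, and the part of tumor cell content or of other cells in the differences was not tested.

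**Figure D4:**
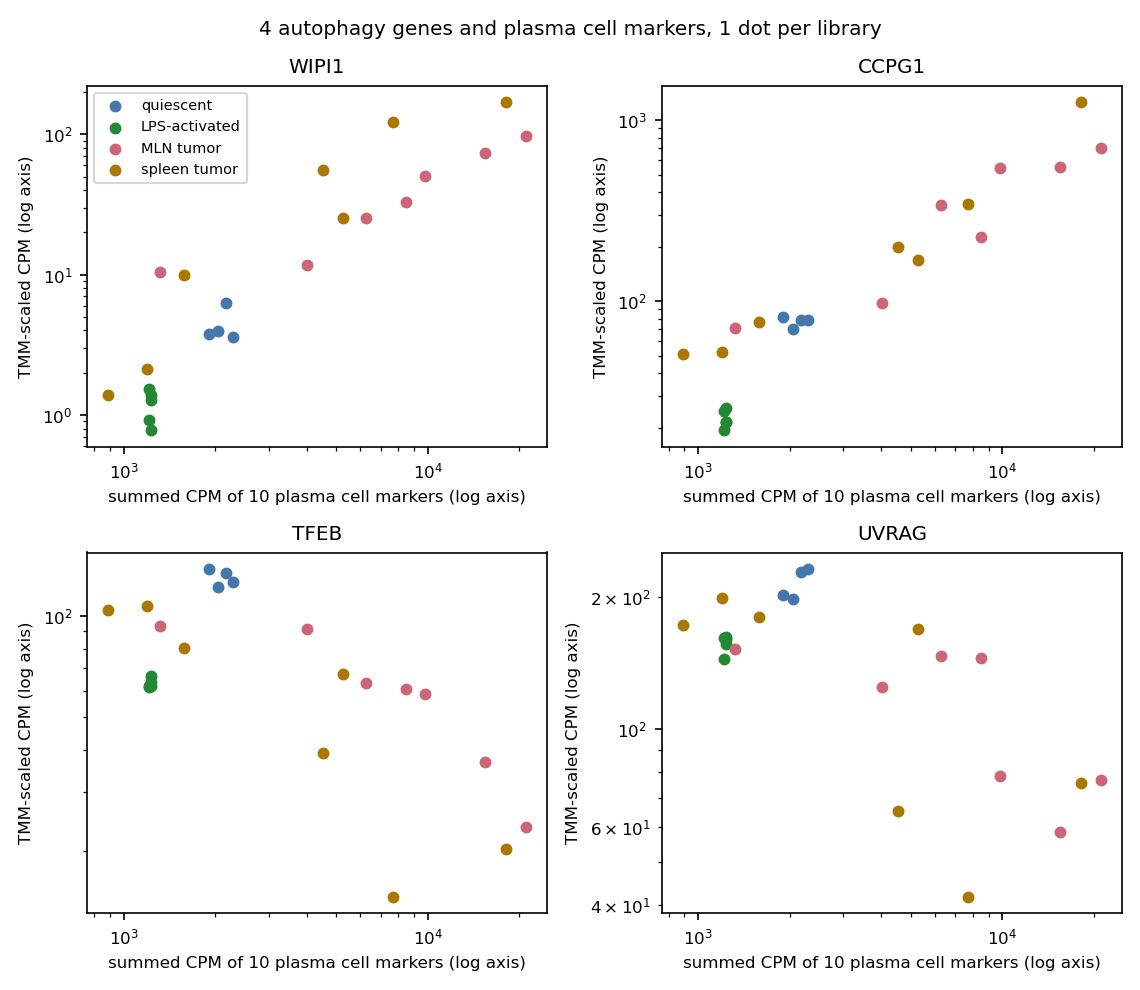
TMM-scaled CPM of WIPI1, CCPG1, TFEB and UVRAG against the summed CPM of 10 plasma cell markers, log axes, 1 dot per library colored by group. Tumor dots tend to climb for WIPI1 and CCPG1 and to descend for TFEB and UVRAG, with exceptions, as the markers go from 887 to 21094 CPM, and the spleen tumors with the fewest plasma cell markers lie near the control dots.

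MLN and spleen tumors were compared to ask whether the site mattered. No autophagy gene was called, and edgeR called 0 of all 11633 profiles (0%). At an unadjusted p under 0.05 there were 1 autophagy gene, ATG4B, and 511 profiles (4.39%). MLN tumors lay entirely above spleen tumors for 0.0086% of profiles and below them for 0.0172%, with 0 autophagy genes in either set. DESeq2 called 20 profiles and limma 0, none of them an autophagy gene. The fit on the 6 mice with both tumors, with the mouse as a block, called 0 profiles as well. The log2 differences, MLN minus spleen, were -0.39 ± 0.90 for WIPI1, 0.21 ± 0.74 for CCPG1, -0.20 ± 0.27 for SQSTM1 and 0.06 ± 0.12 for ATG5. With the standard errors of WIPI1 and CCPG1 a 2-fold difference could have been missed. No detection limit was computed for any of these genes.

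Within mice the tumors could differ widely and in either direction. For WIPI1 the MLN tumor exceeded the spleen tumor by 5.30, 0.38 and 4.27 on the log2 scale in mice 1610, 1613 and 1615. In mice 1611, 1614 and 1616 the differences were -3.49, -1.12 and -0.79. CCPG1 went the same way as WIPI1 in 5 of the 6 mice, by 3.42, -2.27, 0.41, 3.36 and -0.83, and the other way in mouse 1614 (0.76). For SQSTM1 the widest difference was -0.97, in mouse 1616.

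**Figure D5:**
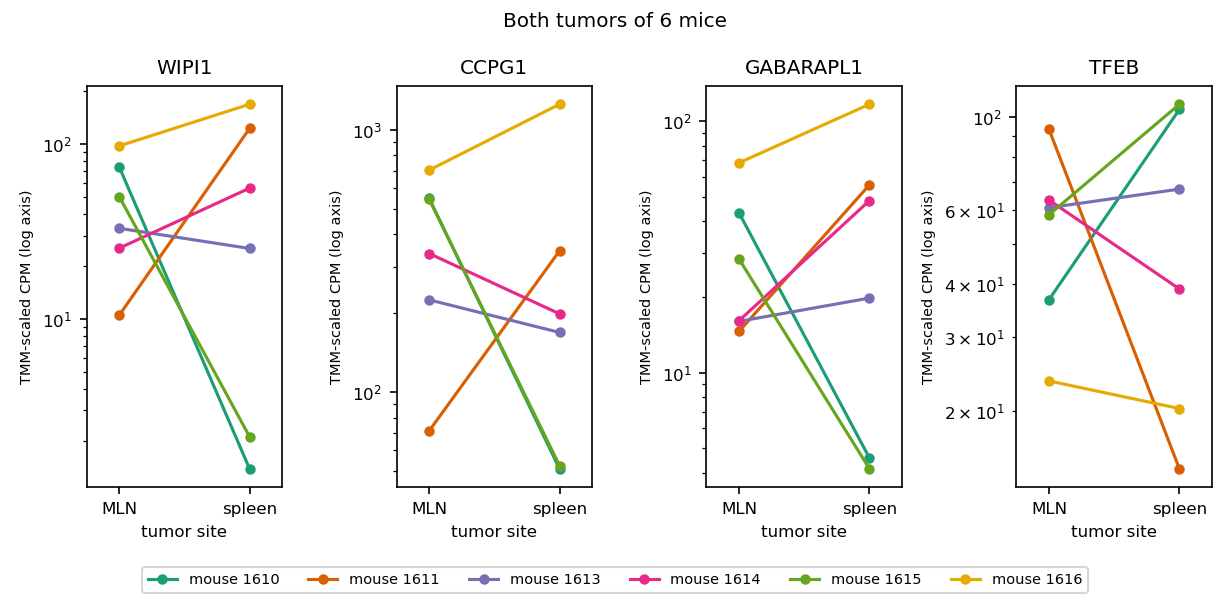
TMM-scaled CPM of WIPI1, CCPG1, GABARAPL1 and TFEB in the MLN and spleen tumor of 6 mice, log axes, 1 line per mouse. The lines of mice 1610 and 1615 fall steeply for WIPI1, CCPG1 and GABARAPL1 and that of mouse 1611 rises, with the reverse for TFEB.

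The neighbors of the autophagy machinery were read from 4 lists of genes. Of 28 genes of nutrient control, the mTOR and AMPK pathways that govern the ULK complex, 8 were higher and 9 lower in tumor mice than in quiescent cells (median log2 difference -0.13, against 0.08 over all profiles). Against activated cells 10 were higher and 6 lower, and in activated against quiescent cells 5 were higher and 10 lower. For these and the lists that follow, the shares of all profiles called higher and lower were 36.8% and 31.9% in tumor mice against quiescent cells, 36.1% and 27% against activated cells, and 25.4% and 34.1% in activated against quiescent cells. The medians over all profiles were 0.08, 0.09 and -0.15. The nutrient control counts lay near these shares against quiescent cells. FNIP2, a partner of folliculin at the lysosome, went from 0.654 to 1.31 CPM in quiescent and 0.207 to 0.499 CPM in activated cells to 4.27 to 99.9 CPM in tumors, a fitted difference of 4.72 ± 0.65 against quiescent (adjusted p = 1.67e-05). FNIP2 too passed the filter only with its tumor libraries. DEPTOR, an mTOR inhibitor known to be abundant in myeloma, went from 1.24 to 2.77 CPM in quiescent cells to 1.86 to 48.6 CPM in tumors (3.01 ± 0.47, adjusted p = 4.71e-05). RICTOR and TSC1 were lower in tumor mice by 1.05 and 0.81 on the log2 scale. PRKAA2, a catalytic subunit of AMPK, was higher in activated cells (1.60 ± 0.51, adjusted p = 0.0131) and lower in tumor mice than in activated cells (-2.62 ± 0.42). It had 3.27 to 4.15 CPM in activated libraries, at most 1.63 CPM in quiescent and at most 1.24 CPM in tumor libraries. The activated libraries alone were enough to carry PRKAA2 past the filter, so its tests are not independent of that choice.

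Of 21 genes for fusion with the lysosome and late steps, 3 were higher and 13 lower in tumor mice than in quiescent cells (median -0.31), 6 were higher and 6 lower than in activated cells, and 1 was higher and 11 lower in activated than in quiescent cells. RUBCN, the gene of Rubicon, which restrains autophagosome maturation, and its relative RUBCNL were lower in tumor mice by 1.11 and 1.04 on the log2 scale. RUBCN had 245 to 254 CPM in quiescent, 112 to 121 CPM in activated and 26.5 to 204 CPM in tumor libraries. VAMP8, a SNARE of the fusion step, was higher by 0.35 ± 0.10. TECPR1, a tethering factor, was lower in activated cells (-1.52 ± 0.12) and higher in tumor mice than in activated cells (0.75 ± 0.10).

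Counts for other receptors and mitophagy lay near the shares of all profiles against quiescent cells. Of 20 listed genes 18 were tested, of which 6 were higher and 5 lower in tumor mice than in quiescent cells (median 0.12), 7 and 6 than in activated cells, and 5 and 5 in activated cells. WDFY3, a scaffold for the autophagy of aggregates, had 1.09 to 3.98 CPM in quiescent, 0 to 0.372 CPM in activated and 1.05 to 209 CPM in tumor libraries (4.48 ± 0.87 against quiescent, adjusted p = 0.000333). The mitophagy receptors BNIP3 and BNIP3L, known as hypoxia genes, were higher in activated than in quiescent cells by 3.46 ± 0.60 and 1.15 ± 0.22. BNIP3 spread from 98.8 to 267 CPM among activated and from 4.97 to 120 CPM among tumor libraries.

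Of 43 listed lysosomal genes 40 were tested. In tumor mice 16 were higher and 4 lower than in quiescent cells (median 0.26), a count of higher genes near the share of all profiles. Against activated cells 28 were higher and 4 lower (median 0.75). Activated cells had 4 higher and 16 lower than quiescent ones (median -0.31). The protease CTSD went from 79.7 to 95 CPM in quiescent cells to 120 to 1558 CPM in tumors, a rise of 2.78 ± 0.35 (adjusted p = 7.50e-06). CTSB, another cathepsin, had 136 to 175 CPM in quiescent, 87.8 to 98.1 CPM in activated and 232 to 2233 CPM in tumor libraries. MCOLN1, which codes for a calcium channel of the lysosome, was lower in tumor mice than in quiescent cells (-0.44 ± 0.09, adjusted p = 0.000327). Macrophages are rich in these hydrolases, and the macrophage markers summed to 201 to 2812 CPM in tumors against at most 150 CPM in controls. Their part was not tested.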

How the data were processed

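RNA-seq libraries of 14 tumors and 9 B cell controls were compared. Per the submitters' processing notes, the authors used Trim Galore 0.4.0, DESeq2 and the genome build GRCm39 (for the quantifier, annotation and conversion to human gene symbols, nothing is stated in the sources used). The deposited table is named for TPM, but its values, of which 1 of 316885 above 0 is whole within 1e-6, sum to 13328866 to 25045814 per library, so they were used as estimated counts, rounded to whole numbers. Of 61651 entries 21282 carried values and 17047 were above 0; identical entries were merged into 15881 profiles, and 532 names had several profiles, for which values are uncertain as to the mouse gene. The test covered the 11633 profiles that reached 1 CPM in 4 or more libraries.

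edgeR 4.0.16 (quasi-likelihood test, TMM, 2-sided, Benjamini-Hochberg over all profiles) was fitted in R 4.3.3 on 8 tumor mice (both tumors of a mouse summed), 4 quiescent and 5 activated libraries. MLN and spleen tumors were compared over 14 libraries. Same-numbered tumors come from the same animal, per the labels; the correlations of their deviations lay between -0.48 and 0.7 in the 6 mice. Standard errors are the log2 fold change divided by the root of F. DESeq2 1.42.0, limma 3.58.1 (prior count 2) and the other settings of the closing section were alternatives, and the fit was tested on simulated data. The genes, lists and rules were chosen with earlier results of these data known. Genes given with full values were SQSTM1, ATG5 and the 5 largest rises and 5 largest falls past the threshold in each comparison; for the lists, the 2 largest of each, from which a selection is given. Other genes were named by role. Depth limits scarce genes most, as for ATG9B.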

Additional observations from a re-analysis of the deposited data

Results flagged for a closer look

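Of 64 groups of libraries examined for the genes given with full values, 3 held a library set apart from the rest of its group by more than chance gives in about 1 group of 20. They were activated library 4 for ATG9B (1.53 CPM), the spleen tumor of mouse 1616 for CCPG1 (1254 CPM) and quiescent library 2 for WIPI1 (6.31 CPM). Groups of this number would give about as many by chance.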

How the results depend on the processing

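Counts of autophagy genes called kept within 1.5 times of the reported count under most alternatives. The exceptions were as follows. With a call that also needs a 2-fold change, 6 genes were higher and 5 lower in tumor mice than in quiescent cells, 6 higher and 0 lower than in activated cells, and 11 lower in activated than in quiescent cells. The 3 genes lower in tumor mice than in activated cells became 5 after quantile normalization, 5 without the low-count filter, 5 with MLN tumors alone, and 3 to 12 when each library or mouse was left out. The 25 genes lower in activated cells became 16 with all 14 tumors as separate samples and 14 with the Y-linked covariate. Quantile normalization shifted the median of all profiles by -0.20 and -0.22 in the tumor comparisons with quiescent and activated cells, to -0.13 and -0.14, and turned MITF in the former to -0.15. Leaving out the low-count filter shifted that median by 0.26 and 0.21, and by 0.14 between the controls. The small ATG5 difference between activated and quiescent cells changed sign with a filter of 5 CPM (-0.01) and ranged from -0.03 to 0.11 when a library or mouse was left out. The replicate numbers of activated and quiescent libraries did not pair them (correlations of -0.02 to 0.01). A replicate block over them, in a fit without tumors, gave 9 genes higher and 26 lower. For MLN against spleen tumors the mouse as replicate block called 0 genes, as did the same 6 mice without the block, a fit chosen after seeing the data. In the comparisons that involve control cells, shares of all profiles are given for the reported fit only, so counts from other fits have no share beside them. The cause of these changes was not tested.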
